A study of Mus musculus with 8 samples.

Results

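Interferon-stimulated genes are the genes that cells switch on when interferon reaches its receptors. The 34 genes described here were taken by symbol from the 24639 genes counted in each library, whatever their values: the transcription factors Irf1, Irf7, Irf9 and Stat2; the RNA sensors Ifih1, Ddx58 and Dhx58; the 2'-5'-oligoadenylate synthetase genes Oas1a, Oas2, Oas3, Oasl1 and Oasl2; the Ifit genes Ifit1, Ifit2 and Ifit3; the effectors Mx1, Mx2, Rsad2, Isg20, Bst2, Rtp4, Xaf1, Ifi35 and Ifi44; the ubiquitin-like modifier Isg15 with Usp18, Trim25 and Dtx3l; Parp9 and Parp14; and the GTPases Gbp2, Gbp3, Igtp and Irgm1. They were read in primary mouse mesangial cells (MMC), the contractile support cells of the kidney glomerulus. The MMC were C57BL/6J cells grown in RPMI medium with 10% foetal bovine serum and given no treatment. WT MMC were compared with miR-379KO MMC, from mice in which a CRISPR-Cas9 nickase deletion removes the microRNA miR-379, and each genotype was measured as total RNA and as RNA recovered with an antibody to AGO2 (AGO2-IP), the protein that carries microRNAs. Each of the 4 combinations had 2 libraries, labelled A and B. The labels do not say whether A and B came from separate animals, and the cells were grown from pooled glomeruli, so the p-values measure only the spread between these libraries.

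Type I interferons bind the receptor Ifnar1-Ifnar2, and the kinases Jak1 and Tyk2 then phosphorylate transcription factors including Stat2, which joins Irf9 and enters the nucleus. The complex formed binds the interferon-stimulated response element (ISRE) in the promoters of its target genes, whereas the response to interferon gamma acts through the gamma-activated site (GAS). The products of the target genes sense foreign RNA, degrade it, block its translation, or modify proteins with Isg15, and Usp18 closes the loop as a negative regulator. Most resting cells carry a low, tonic level of some of these genes.

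The promoters are shown because the ISRE is the sequence feature these genes are known for. RefSeq promoters (build GRCm38.p6, 250 bases before to 50 after the annotated start) were found for 26 of the 34 genes; Dhx58, Oas2, Mx1, Mx2, Rtp4, Usp18, Parp9 and Parp14 had no entry. The ISRE core was searched as GAAANNGAAA on both strands, with overlapping matches allowed. It was found for 14 of the 26 genes (53.8%), against 3.93% of 18200 genes with a row in the files, and per promoter for 14 of 32 (43.8%) against 3.37% of 21920. The GAS core, TTCNNNGAA, was found for 7 of the 26 genes (26.9%), against 9.15% of the 18200. A letter match is a description of the window and not a binding site. Windows of 50 bases before the start are given below for genes that span the range of levels found here, 5' to 3' on the gene's strand, with the ISRE core or its reverse complement in capitals.
Irgm1 (chr11:48871421-48871470, minus strand): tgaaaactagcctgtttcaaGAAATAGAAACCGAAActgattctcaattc
Bst2 (chr8:71537573-71537622, minus strand): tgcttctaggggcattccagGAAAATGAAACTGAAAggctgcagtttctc
Gbp2 (chr3:142620584-142620633, plus strand): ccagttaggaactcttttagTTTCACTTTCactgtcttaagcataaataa
Isg15 (chr4:156200867-156200916, minus strand): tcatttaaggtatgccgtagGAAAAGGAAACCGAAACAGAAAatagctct
Igtp (chr11:58199502-58199551, plus strand): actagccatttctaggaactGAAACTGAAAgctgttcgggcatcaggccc
Gbp3 (chr3:142559979-142560028, plus strand): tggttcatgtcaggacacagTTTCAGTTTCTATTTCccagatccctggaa
Ifit1 (chr19:34640765-34640814, plus strand): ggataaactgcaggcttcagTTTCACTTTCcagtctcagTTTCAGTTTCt
Oas3 (chr5:120777705-120777754, minus strand): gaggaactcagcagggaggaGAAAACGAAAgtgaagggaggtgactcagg
Oas1a (chr5:120907526-120907575, minus strand): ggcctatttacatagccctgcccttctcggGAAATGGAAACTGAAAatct

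In these windows Isg15 held 3 overlapping matches, Irgm1, Bst2, Gbp3 and Oas1a held 2 that overlap, and Ifit1 held 2 apart. Matches before the start were also found for Stat2, Ifit3 and Rsad2. Irgm1, the gene with the most RNA of the 34, and Oas1a, with no count in total RNA, both held overlapping matches within 30 bases of the start.

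Total RNA libraries held 17168230 to 22660743 gene counts and AGO2-IP libraries 5587611 to 17095021. The ribosomal gene Rn45s took 72.21% to 80.54% of the AGO2-IP counts, so only 1115782 to 1875037 AGO2-IP counts lay outside Rn45s and Lars2. The gene row for Mir379 had no count in total RNA and 0, 4, 1 and 0 counts in AGO2-IP, so these gene counts do not check the deletion. Of 8 mesangial markers 7 averaged at least 10 counts in total RNA, while Ren1, of the renin cells, was at 0. Summed markers of macrophages and leukocytes stood between 1.88 and 5.14 CPM, and all 4 dendritic and lymphoid markers were at 0.

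Receptor and kinase genes of the interferon pathway were detected in total RNA, while its ligand genes and some sensor genes were at or near 0. The receptor genes for type I interferon and interferon gamma were well covered: Ifnar1 had 1923 to 2768 counts, Ifnar2 472 to 755, Ifngr1 935 to 1648 and Ifngr2 2485 to 4635. Il10rb, shared with interleukin-10, had 693 to 1183 counts, and Ifnlr1, its partner in the type III receptor, 9 to 23. The kinase genes Jak1 (4667 to 6856 counts) and Tyk2 (387 to 536) were detected in every library. So were Irf3 (482 to 885), which induces interferon after RNA sensing, its mitochondrial adaptor Mavs (580 to 976), and Eif2ak2 (337 to 634), the kinase that stops translation on double-stranded RNA. Of 21 interferon ligand genes, 18 had no count in any total RNA library, and no ligand gene exceeded 5 counts. The ligand counts summed to 5, 2, 5 and 0 in WT A, WT B, miR-379KO A and miR-379KO B. Of the endosomal sensor genes, Tlr9 had 0 counts in every library and Tlr7 and Tlr8 no more than 1, whereas Tlr3 had 64 to 118.

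Against that setting the 34 genes ranged from abundant to undetected in total RNA. Levels between genes are compared as CPM per kb of exon, where CPM is a gene's count scaled to the library's total, which corrects for depth and gene length. In bulk RNA a low level in every cell and a higher level in few cells cannot be told apart, nor can fewer cells of a type and less RNA per cell. Only 2 genes stood at 10 CPM per kb or more, 16 lay between 1 and 10, and 16 lay below 1.

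**Figure D1:**
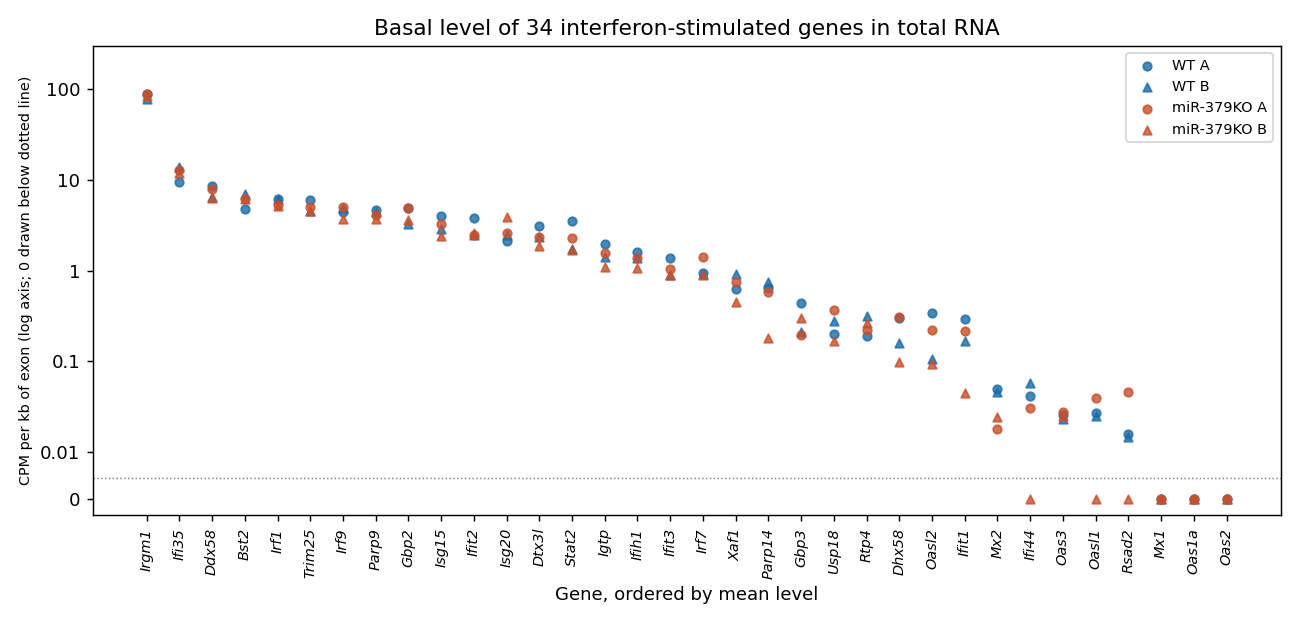
CPM per kb of exon on a log axis for the 34 genes in the 4 total RNA libraries, ordered by mean level, with circles for A and triangles for B. Irgm1 sits near 85.2 in every library, 2 genes exceed 10, and Oas1a, Oas2 and Mx1 lie at 0.

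Irgm1, a GTPase that guards membranes and supports autophagy of intracellular microbes, was the highest. Its level was 89.0 and 78.2 CPM per kb in WT MMC and 89.0 and 84.5 in miR-379KO MMC, so the genotypes overlapped and its mean of 85.2 lay at the 95.8th percentile of genes with a count. Irgm1 alone gave 46.6% to 52.2% of the counts of all 34 genes in total RNA. The related GTPase gene Igtp stood at 1.95, 1.41, 1.55 and 1.10 CPM per kb (WT A, WT B, miR-379KO A, miR-379KO B, the order used from here on). Gbp2, a guanylate-binding protein gene of the interferon gamma response, stood at 4.84, 3.28, 4.85 and 3.57 CPM per kb, and its neighbour Gbp3 at 0.440, 0.210, 0.195 and 0.301. In Gbp2 both A libraries lay above both B libraries.

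Ifi35, which encodes a leucine zipper protein of the interferon response, was next at 9.43, 13.7, 12.8 and 11.9 CPM per kb. The RNA sensor gene Ddx58, encoding RIG-I, followed at 8.53, 6.44, 7.97 and 6.26 CPM per kb, and Ifih1, encoding MDA5, stood at 1.60, 1.36, 1.38 and 1.05. Dhx58, their regulator LGP2, had only 12, 7, 17 and 4 counts. Bst2, a membrane tether of budding virus, had a mean of 5.99 CPM per kb and the ubiquitin ligase gene Trim25, which activates RIG-I, a mean of 5.02.

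The transcription factor genes were in the middle of the range. Irf1 averaged 5.68 CPM per kb (6.09, 6.16, 5.31 and 5.16), Irf9 4.53 (4.46, 4.91, 5.06 and 3.69), Stat2 2.30 (3.48, 1.72, 2.31 and 1.67) and Irf7, the factor that amplifies interferon production, 1.04 (0.931, 0.913, 1.43 and 0.885). Both miR-379KO libraries lay below both WT libraries for Irf1, and the genotypes overlapped for the other factors. Stat2 was the factor with the widest spread, with WT A at 3.48 and WT B at 1.72. A 220 bp stretch of Stat2 exon is shared with Apof on the same strand, so reads there could belong to either gene.

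Parp9 and Dtx3l encode partners in one complex and are annotated head to head on opposite strands of chromosome 16, Dtx3l at chr16:35926515-35939027 and Parp9 at chr16:35938470-35972621, so their 5' ends overlap. Parp9 averaged 4.22 CPM per kb and Dtx3l 2.42, while Parp14, which lies nearby at chr16:35831892-35871518, averaged 0.536. Isg15, the ubiquitin-like modifier, averaged 3.15 CPM per kb, the exonuclease gene Isg20 2.77, the translation inhibitor gene Ifit2 2.82 and Ifit3 1.05. Xaf1, a gene linked to cell death, averaged 0.688 CPM per kb, Usp18 0.254 and the chaperone gene Rtp4 0.246.

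Of the effectors, most Oas genes, both Mx genes, Rsad2 and Ifi44 were at or near 0. Oas1a, Oas2 and Mx1 had 0 counts in all 4 total RNA libraries, where 3 counts, the number that a count of 0 still allows, equal 0.130 to 0.179 CPM. Oas3 had 2, 2, 3 and 2 counts, Oasl1 1, 1, 2 and 0, Mx2 2, 2, 1 and 1, Rsad2, encoding viperin, 1, 1, 4 and 0, and Ifi44 2, 3, 2 and 0. Mx1 and Mx2 are annotated as transcribed pseudogenes in GRCm38.p6. The Oas genes are close copies of each other, so counting could split or drop reads they share. Oasl2 (18, 6, 16 and 5 counts) and Ifit1 (13, 8, 13 and 2) were detected, each with fewer counts in B than in A.

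In total RNA none of the genes was called between miR-379KO and WT MMC. Of the 34 genes 24 passed the filter on low counts, 0 were called at an adjusted p under 0.05 (edgeR quasi-likelihood test, Benjamini-Hochberg adjustment over all 12321 genes tested), 0 had an unadjusted p under 0.05, and DESeq2 likewise called 0. Over all genes 0% were called, and the study's cutoff of a fold over 1.5 with an unadjusted p under 0.05 took 0.682% of all genes and 0 of the 24. In simulated libraries of this comparison, on 12308 genes, 99 of 100 changes of 4-fold and 71 of 98 changes of 2-fold were called. The simulation fixed 1 spread between replicates for all genes and did not take it from these libraries. The real libraries had a median absolute log2 ratio of B to A of 0.40 in WT and 0.22 in miR-379KO. The shares called in simulation are thus no measure of power in the real data.

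The log2 changes were small for the well covered genes. Irgm1 gave 0.05 ± 0.21 (SE, n = 2 a group), from 193 ± 17.7 to 200 ± 7.36 CPM (SD), which is within its spread. Ddx58 gave -0.07 ± 0.25, Trim25 -0.14 ± 0.24 and Ifi35 0.09 ± 0.27. The 24 log2 changes had a median of -0.23, with 6 above and 18 below 0, beside a median of -0.01 over all genes. Without WT total RNA A that median was -0.02, without miR-379KO total RNA B -0.05, and without each of the other libraries -0.33 and -0.29. The lowest unadjusted p of the 24 was 0.176 (edgeR, adjusted p = 1), for Parp14, an ADP-ribosyltransferase gene. Parp14 stood at 4.71 and 5.36 CPM in WT MMC and 4.17 and 1.29 in miR-379KO MMC, a log2 change of -0.87 ± 0.57, and miR-379KO B lay well below the other libraries. CPM did not overlap between genotypes for 5 of the 24 genes, beside 19% of all genes tested: Irf1, Dtx3l, Parp9 and Parp14 were lower in both miR-379KO libraries, and Isg20 was higher in both.

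**Figure D2:**
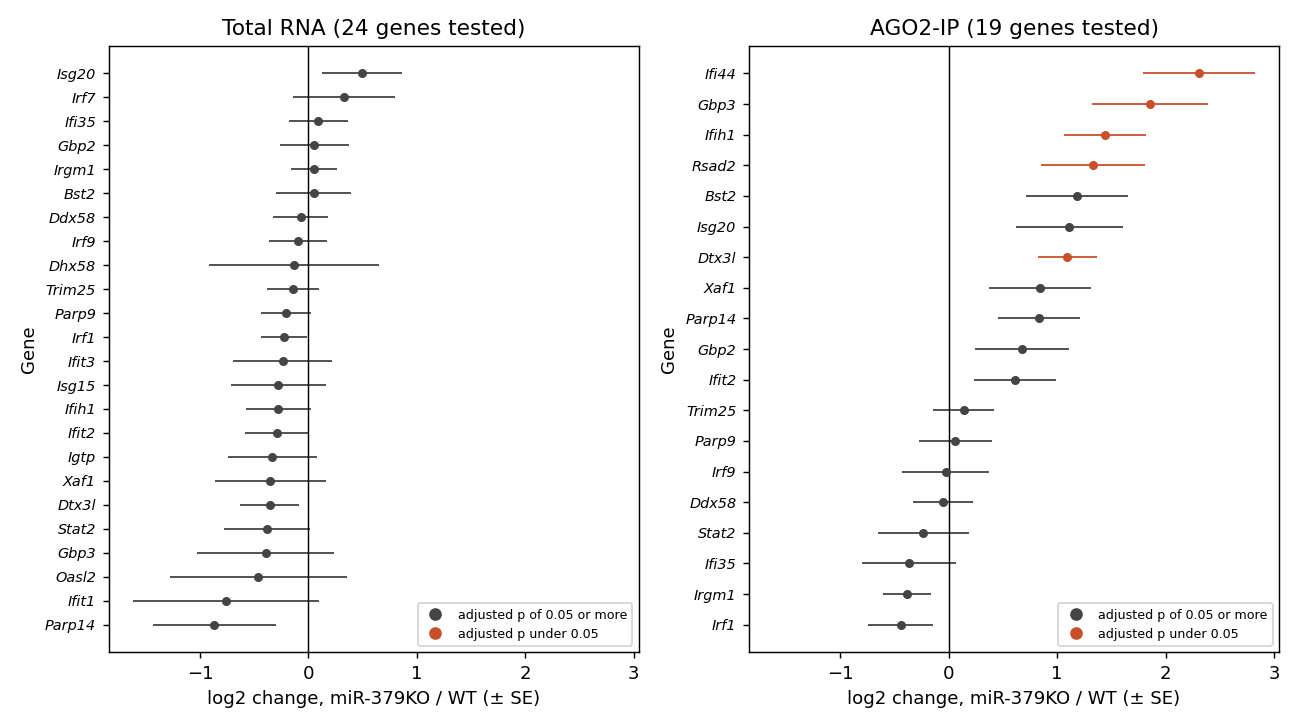
The log2 change between miR-379KO and WT MMC for each gene tested, with SE, in total RNA on the left and AGO2-IP on the right. In total RNA 24 genes were tested and 0 called, and in AGO2-IP 19 were tested and 5 called.

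Libraries A and B differed in the same direction for most of these genes in both genotypes. More were lower in B than in A: 17 of 24 in WT and 20 of 24 in miR-379KO, 15 of them in both, beside 50% and 49.7% of all genes tested. The median log2 ratio of B to A was -0.39 in WT and -0.36 in miR-379KO, and close to 0 over all genes in each. Each of these ratios compares 1 library with 1, and no test was made. Past 2-fold, 2 of 24 genes differed in WT beside 11.1% of all genes, and 3 of 24 in miR-379KO beside 5.85%.

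In WT Stat2 (-1.0) and Oasl2 (-1.45) were the genes past 2-fold, and in miR-379KO they were Dhx58 (-1.23), Ifit1 (-1.47) and Parp14 (-1.60). Among well covered genes Ddx58 gave -0.40 in WT and -0.35 in miR-379KO, Dtx3l -0.37 and -0.31, Gbp2 -0.56 and -0.44 and Igtp -0.46 and -0.45. Isg20 and Bst2 alone of the 24 were higher in B in both genotypes. Some other genes followed the letters too, although over all genes the deviations of same-letter total RNA libraries correlated at -0.126. Summed podocyte markers were 535 and 211 CPM in WT A and B and 503 and 276 CPM in miR-379KO A and B, mostly from Synpo, an actin-associated gene, with 8652, 3561, 10980 and 4282 counts. The mesangial marker Pdgfrb had 3391, 2073, 4147 and 1913 counts, and Itga8 38, 7, 29 and 19. The other mesangial markers detected, Des, Acta2, Tagln, Gata3 and Tbx18, were not lower in B in both genotypes. Des, for example, had 1801, 14442, 5000 and 2252 counts. The summed mesangial markers, however, did not follow the letters, at 11229.5 and 14968.3 CPM in WT A and B and 17838.9 and 16849.3 CPM in miR-379KO A and B. Nor did the summed tubular epithelial markers, at 2.15 and 46.8 CPM in WT and 26.4 and 8.99 CPM in miR-379KO. Summed endothelial markers were lower in B in both genotypes, at 0.537 and 0.383 CPM in WT and 2.09 and 0.0587 CPM in miR-379KO. These sums were near the floor and came mostly from Emcn, with 8, 5, 36 and 1 counts. The part of these values in the A-to-B difference was not tested. The summed level of the 34 genes was 440 and 380 CPM in WT MMC and 418 and 373 CPM in miR-379KO MMC. Summed macrophage and leukocyte markers did not follow the letters: they were 1.91 and 5.14 CPM in WT A and B, and 4.91 and 1.88 CPM in miR-379KO A and B. Rn45s did not follow them either, at 9.264% of gene counts in WT A, 4.516% in WT B, 5.635% in miR-379KO A and 7.041% in miR-379KO B.

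**Figure D3:**
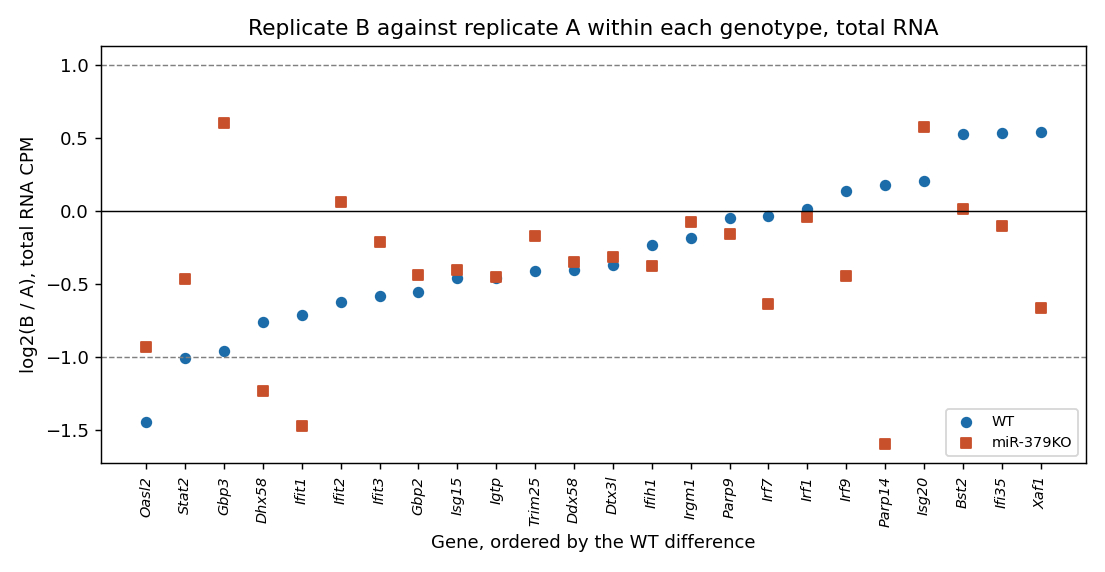
The log2 ratio of B to A in total RNA for the 24 genes tested, circles for WT and squares for miR-379KO, with dashed lines at 2-fold. Most points lie below 0 in both genotypes, 17 of 24 in WT and 20 of 24 in miR-379KO.

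No other gene of the pathway was called between genotypes in total RNA. Of 35 tested among 61 pathway genes 0 were called by edgeR, with 1 at an unadjusted p under 0.05: Socs3, a feedback inhibitor of cytokine receptors, at -0.70 ± 0.25 (adjusted p = 1). Their log2 changes had a median of -0.03. Ifnar1 gave -0.11 ± 0.20, Ifngr1 -0.31 ± 0.23 and Jak1 0.05 ± 0.22.

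Recovery in AGO2-IP was read against a background, because many genes without a count in total RNA had AGO2-IP counts. Over 5191 protein-coding genes outside the list with 0 counts in every total RNA library, the AGO2-IP libraries held 1.35 and 0.914 counts per kb in WT MMC and 3.09 and 3.52 in miR-379KO MMC. This rate was higher in both miR-379KO libraries, which also had more reads outside genes or unassigned, 87.91% and 88.94%, than the WT libraries, 73.19% and 73.11%. Their part in the AGO2-IP differences between genotypes was not tested. Multiplied by exon length, the rate gives the count that a gene unseen in total RNA would have on average. A gene was taken as above background where the 95% Poisson interval of its count lay above that value, and the intervals cover counting error only.

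The AGO2-IP libraries were made by adapter ligation but counted in the reverse-strand setting, which with a forward-stranded library would count RNA antisense to each gene. To see which strand these counts came from, 7 genes with a mean of at most 1 count in total RNA were read whose exons share at least 300 bases, on the opposite strand, with a gene of 1000 or more. They held 1.85, 1.01, 3.40 and 5.25 AGO2-IP counts per kb, beside 2.14, 1.25, 3.56 and 4.03 for 9646 such genes without an overlap. Masp2, for example, shares 1800 bases with Tardbp and had 34 AGO2-IP counts over the 4 libraries, against 699 for Tardbp. These 7 genes, chosen after the AGO2-IP counts were seen, bear on the strand only as a description.

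**Figure D4:**
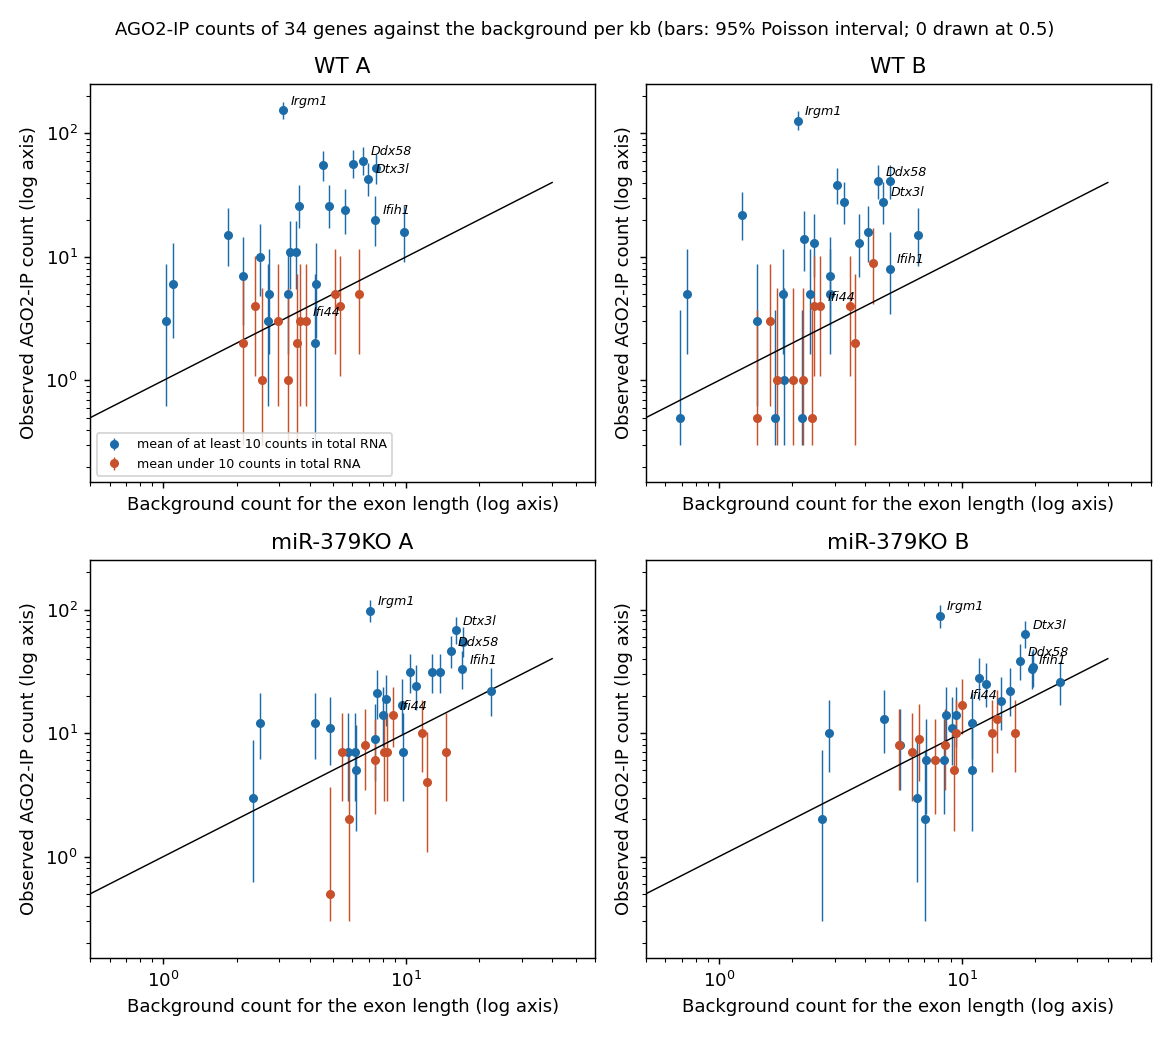
Observed AGO2-IP counts of the 34 genes against the background count for their exon length, both on log axes, 1 panel per library, with 95% Poisson intervals and the line of equality. The genes with a mean under 10 counts in total RNA have intervals that reach the line or lie below it in every panel, and Irgm1 lies far above it.

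The 11 genes with a mean under 10 counts in total RNA were at this background in AGO2-IP. These were Oas1a, Oas2, Oas3, Oasl1, Ifit1, Mx1, Mx2, Rsad2, Rtp4, Ifi44 and Usp18. Together they had 33 and 29 counts in WT MMC where the background gave 41.18 and 27.88, and 72 and 103 counts in miR-379KO where it gave 94.15 and 107.4. None was above background in any library, and 3 were below it in miR-379KO A. Mx1, for example, had 3, 4, 7 and 10 AGO2-IP counts against background values of 3.64, 2.46, 8.32 and 9.49. Its counts were thus higher in both miR-379KO libraries, as was its background value. Rsad2 had 5, 4, 10 and 10 counts against 5.11, 3.46, 11.7 and 13.3.

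Of the 23 genes seen in total RNA, 16 were above background in WT A, 13 in WT B, 15 in miR-379KO A and 9 in miR-379KO B. Together they had 617 and 435 counts in WT MMC against background values of 98.65 and 66.78, and 583 and 482 in miR-379KO against 225.5 and 257.3. Irf1, Ddx58, Bst2, Ifi35, Trim25, Dtx3l, Parp9 and Irgm1 were above background in all 4 libraries. Irgm1 had 154, 127, 98 and 89 AGO2-IP counts against background values of 3.11, 2.11, 7.11 and 8.11, and Ddx58 60, 41, 46 and 38 against 6.67, 4.52, 15.2 and 17.4. Dhx58, Oasl2, Ifit3, Isg15 and Igtp, 5 of the 23, were above background in 0 of 4 libraries; Isg15 had 3, 0, 3 and 2 AGO2-IP counts.

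Compared with total RNA of the same genotype, mostly genes with few total RNA counts were higher in AGO2-IP, and Irgm1 was lower. The assays also differ in library protocol, so recovery with AGO2 and protocol cannot be told apart in these ratios. The scaling factors of the fit of all 8 libraries were 2.19 to 2.45 in total RNA and 0.251 to 0.655 in AGO2-IP. In WT MMC 32 genes could be tested, 8 were higher in AGO2-IP by at least 2-fold at an adjusted p under 0.05 (edgeR), beside 35.7% of all genes, and 1 was lower, beside 7.33%. The 8 were Oas2, Oas3, Oasl1, Oasl2, Mx1, Rsad2, Ifi44 and Usp18. Each of them had no AGO2-IP count above background, so the ratio sets a background count in AGO2-IP against a count near 0 in total RNA. The lower gene was Irgm1, with a log2 change of -1.20 ± 0.24 (adjusted p = 0.000587). Here and in the next paragraph CPM uses the factors of the fit of all 8 libraries, which centre the assays on each other, so it differs from the CPM given elsewhere, whose factors come from 1 assay alone. On this scale Irgm1 stood at 81.6 and 82.5 CPM in WT total RNA and 36.0 and 35.6 CPM in WT AGO2-IP. Without miR-379KO AGO2-IP B the 9 calls in WT fell to 5.

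In miR-379KO MMC 16 of 32 genes were higher in AGO2-IP, beside 41.6% of all genes, and 2 were lower, beside 19.3%. Irgm1 was again lower, at 93.8 and 85.1 CPM in total RNA and 25.3 and 24.3 CPM in AGO2-IP (-1.85 ± 0.25, edgeR adjusted p = 4.32e-06). Ifi35 was the other, at 7.95 and 7.06 CPM in total RNA and 3.09 and 3.55 in AGO2-IP (-1.18 ± 0.39, adjusted p = 0.0131). Of the 16 higher genes, 9 had a mean under 10 counts in total RNA, and these and Dhx58 and Oasl2, 11 in all, were above background in 0 of 4 AGO2-IP libraries. The remaining 5 were Ifih1, Xaf1, Dtx3l, Parp14 and Gbp3. Of these, Xaf1 and Parp14 were within background in both miR-379KO libraries, and Gbp3 was above it in miR-379KO A but not in miR-379KO B. Dtx3l went from 5.56 and 4.26 CPM in total RNA to 17.5 and 17.2 CPM in AGO2-IP (1.82 ± 0.28) and Ifih1 from 3.48 and 2.54 to 8.51 and 9.02 (1.54 ± 0.37), and both were above background in both miR-379KO libraries. In WT the same log2 ratios were 0.59 ± 0.29 for Dtx3l and 0.02 ± 0.40 for Ifih1 and were not called. Trim25 (-0.07 and -0.02) and Parp9 (0.01 and 0.06) had ratios near 0 in WT and miR-379KO. Over the 32 genes the median log2 ratio was 0.50 in WT, beside 0.49 over all genes. In miR-379KO it was 1.17, beside 0.47. The 23 genes seen in total RNA had medians of 0.01 in WT and 0.40 in miR-379KO. The other 9, none above background in AGO2-IP, had medians of 4.11 and 6.07, and the medians over the 32 include them. With Oas2 and Mx1, at 0 in total RNA, set to the floor of 3 counts a library, both medians over the 32 stayed the same. That is no check, because a median does not move while both genes stay above it. Without WT AGO2-IP A the WT median over all listed genes tested was -0.35, beside 0.11 over all genes. Without miR-379KO AGO2-IP B it was -0.14, beside 0.10.

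Between genotypes, edgeR called 5 of these genes in AGO2-IP, and DESeq2 called 0. Of the 34, 19 passed the filter on low counts, and 5 of these were higher in miR-379KO at an adjusted p under 0.05 (edgeR), beside 21.4% of all 13505 genes tested. Of the 19, 0 were lower, beside 9.52% of all genes. CPM did not overlap between genotypes for 12 of the 19, beside 68.4% of all genes. Of the 19, the 5 genes Rsad2, Isg20, Bst2, Ifi44 and Gbp3 had under 10 counts in both WT libraries. These genes passed the filter through their miR-379KO counts. The calls of Rsad2, Ifi44 and Gbp3, and counts and medians over the 19, therefore carry no weight of their own. In simulated AGO2-IP libraries with the same fixed spread, on 11514 genes, 79 of 85 changes of 4-fold and 34 of 91 changes of 2-fold were called.

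Ifi44, a gene of unclear function induced by interferon, had 3 and 4 AGO2-IP counts in WT MMC and 14 and 17 in miR-379KO MMC, or 0.294, 0.463, 1.64 and 2.17 CPM. Its log2 change was 2.31 ± 0.51 (edgeR adjusted p = 0.00235), with counts within background in all 4 libraries. Gbp3 had 2, 7, 17 and 12 counts, a log2 change of 1.86 ± 0.53 (adjusted p = 0.0114), and was above background only in miR-379KO A. Rsad2 changed by 1.33 ± 0.48 (adjusted p = 0.0474) and was within background throughout.

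Ifih1 and Dtx3l were the called genes with an ample total RNA level. Ifih1 had 20 and 8 AGO2-IP counts in WT MMC and 33 and 33 in miR-379KO MMC, or 1.96, 0.925, 3.87 and 4.22 CPM, a log2 change of 1.45 ± 0.38 (edgeR adjusted p = 0.00668). Both miR-379KO libraries lay above both WT libraries, and the count was above background in 3 of 4 libraries, the exception being WT B. Dtx3l had 43 and 28 counts in WT MMC and 68 and 63 in miR-379KO MMC, or 4.22, 3.24, 7.98 and 8.05 CPM, a log2 change of 1.09 ± 0.27 (adjusted p = 0.00491), and was above background throughout. In total RNA the same genes gave -0.28 ± 0.30 and -0.36 ± 0.27. Parp9, the neighbour of Dtx3l, had 26, 28, 24 and 25 AGO2-IP counts and a log2 change of 0.06 ± 0.34. DESeq2 called 0 of these genes, with 4 at an unadjusted p under 0.05 and no adjusted p for Rsad2, and a fit of all 8 libraries together called 0.

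With 1 AGO2-IP library left out, 3 of the 5 were called without WT A, 2 without WT B, 3 without miR-379KO A, where Oas2 was also called, and 1 without miR-379KO B. Dtx3l lost its call without WT B (0.88, edgeR adjusted p = 0.0522) and kept it without each of the others. Ifih1 lost its call without WT B (0.99, adjusted p = 0.082) and without miR-379KO B (1.37, adjusted p = 0.0572). Ifi44 lost it without miR-379KO B, Gbp3 without each library but WT B, and Rsad2 without each of the 4.

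The AGO2-IP change followed the total RNA level over the genes that passed the AGO2-IP filter. Genes with few total RNA counts could pass it through their miR-379KO counts, as Ifi44, Rsad2 and Gbp3 did. The shares called higher at low levels therefore depend in part on the filter. With a mean of 1 to 10 counts in total RNA, 71.7% of genes were called higher in miR-379KO and the median log2 change was 1.61; both genes of the list in that range, Ifi44 and Rsad2, were called. With 10 to 100 counts 41.3% were called higher, as was 1 of 5 genes of the list, Gbp3. With 100 to 1000 counts 4.65% were called higher, as were 2 of 11 genes of the list, Ifih1 and Dtx3l. Above 1000 counts the median was -0.45, and Irgm1, the only gene of the list there, gave -0.38 ± 0.22 (edgeR adjusted p = 0.19).

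**Figure D5:**
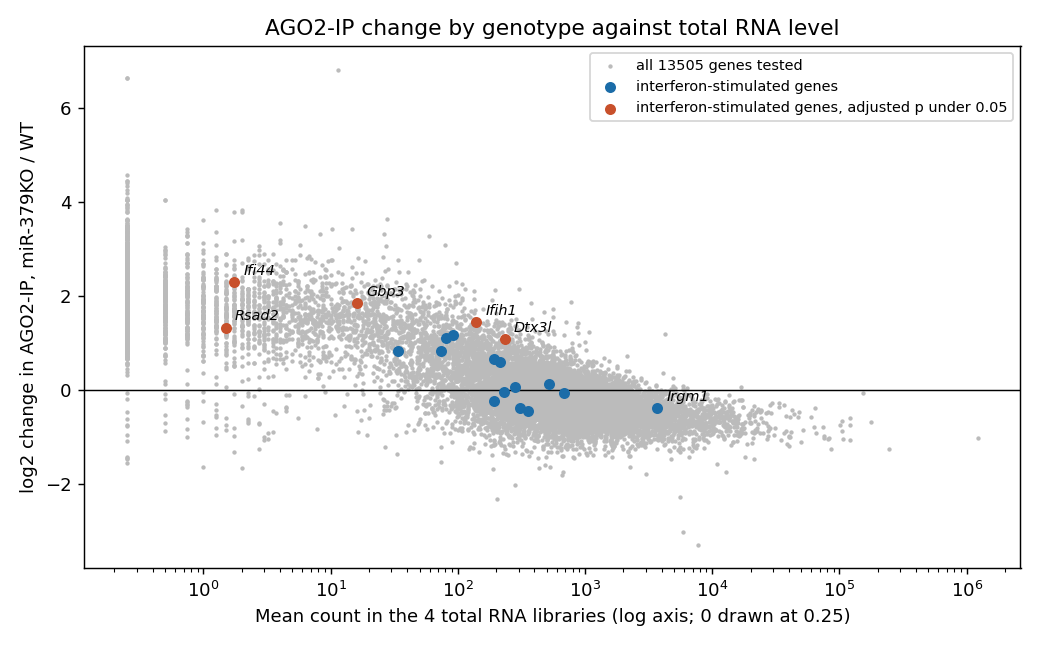
The log2 change in AGO2-IP between miR-379KO and WT MMC against the mean count in total RNA (log axis) for all 13505 genes tested, in grey, and the 19 genes of the list. The 5 called genes lie above 1, and among the 11 genes of the list with 100 to 1000 counts Ifih1 and Dtx3l lie highest.

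When the background count was taken off each library first, the log2 ratio of the group means, miR-379KO to WT, became lower for most of the 19 genes. Ifih1 went from 1.49 to 1.20, Dtx3l from 1.10 to 0.93, Bst2 from 1.20 to 1.06 and Gbp3 from 1.81 to 0.91. Of the other called genes, Rsad2 went from 1.36 to 0.13, and Ifi44 rose from 2.33 to 2.83. Parp14, with counts close to background in miR-379KO, went from 0.84 to -3.69, so the subtraction is unstable near background. Irf1 went from -0.44 to -1.0, Ddx58 from -0.05 to -0.60 and Parp9 from 0.05 to -0.66. The median of the 19 was 0.66 before and -0.15 after, and these values, chosen after the data were seen, have no test.

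The AGO2-IP change beyond the total RNA change was called for 0 of 32 genes tested (edgeR, interaction term), with 6 at an unadjusted p under 0.05, all higher. Over all 17429 genes 0% were called and 15.7% had an unadjusted p under 0.05; DESeq2 called 0 of the 32, with 3 at an unadjusted p under 0.05. Dtx3l gave the lowest unadjusted p of the 32 (1.23 on the log2 scale, adjusted p = 0.237), and Ifih1 gave 1.52 (adjusted p = 0.255). In simulated libraries of this comparison with the same fixed spread, on 13556 genes, 65 of 86 changes of 4-fold and 17 of 73 changes of 2-fold were called.

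Among the pathway genes, 6 were called between genotypes in AGO2-IP. Of 33 tested, 4 were lower in miR-379KO, beside 9.52% of all genes: the receptor genes Ifngr1 (-0.88 ± 0.23, edgeR adjusted p = 0.00705), Ifngr2 (-0.75 ± 0.24) and Il10rb (-0.89 ± 0.30) and the kinase gene Jak1 (-0.70 ± 0.24). Those 4 genes had 693 to 6856 counts in total RNA. Of all genes with a mean over 1000 counts there, as for Ifngr1, Ifngr2 and Jak1, 26.4% were called lower. With 100 to 1000 counts, as for Il10rb, the share was 5.14%. Another 2 were higher, beside 21.4% of all genes, both of sensors: Mb21d1, encoding cGAS (1.32 ± 0.48), and Tlr8, with 0, 1, 9 and 9 AGO2-IP counts. Mb21d1 had 69, 65, 86 and 86 counts in total RNA, and of all genes with a mean of 10 to 100 there 41.3% were called higher. Tlr8 had 1 count in all in total RNA and passed the filter through its miR-379KO counts, and of all genes with a mean above 0 and at most 1 there 79% were called higher. Ifnar1 gave -0.37 ± 0.22 and was not called.

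The deleted microRNA itself is miR-379-5p, at chr12:109709065-109709085 on the plus strand. Its mature sequence is shown with the seed, bases 2 to 8, in capitals, followed by the sites in the 3' ends of these genes that match the seed, with the match in capitals.
miR-379-5p: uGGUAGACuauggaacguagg
Ifit2 (chr19:34575721-34575750, plus strand): aagaagggagattctGTCTACCaccatgac
Parp14 (chr16:35833709-35833738, minus strand): ttatcttcctgttttGTCTACCtattgggg

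The 7-letter match GTCTACC was found in the longest annotated 3' end of 2 of 32 genes with one (6.25%), beside 4.04% of 19119 genes. Ifit2 had 24, 13, 31 and 18 AGO2-IP counts and log2 changes of -0.29 ± 0.30 in total RNA and 0.61 ± 0.38 in AGO2-IP. Parp14 had 16, 15, 22 and 26 AGO2-IP counts, a log2 change of 0.83 ± 0.38 in AGO2-IP (edgeR adjusted p = 0.0928), and was above background in 1 of 4 libraries. Neither gene was called in either comparison.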

How the data were processed

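Whole-number read counts per gene were deposited, 1 file per library. Per the study's methods, the authors mapped both library types to the mm10 build using TopHat, and htseq-count (HTSeq 0.6.0) tallied reads over RefSeq genes, strand-specific in the reverse setting. Total RNA libraries came from a stranded mRNA kit. AGO2-IP libraries came from UV cross-linked, sonicated cells by ligating adapters to the recovered RNA, so the reverse setting may count antisense RNA in them; the report gives a check on overlapping genes. All 8 libraries carried 24639 gene rows; unassigned lines were left out of library sizes.

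The 34 genes and the other lists were chosen with earlier results of these data known. All 34 are named, and pathway genes are counted as a list, with values for listed genes and any called; some listed genes are not reported here. Genes passing filterByExpr (minimum count 10) were fitted with edgeR 4.0.16 (R 4.3.3) quasi-likelihood models on TMM factors, with Benjamini-Hochberg adjustment over all genes and calls at an adjusted p under 0.05: the 4 total RNA libraries, the 4 AGO2-IP libraries, or all 8 for AGO2-IP against total RNA, where 2-fold was also required, and for the interaction. CPM used the factors of each assay's own fit, or of the fit of all 8 libraries where AGO2-IP is set against total RNA, and exon lengths came from RefSeq GRCm38.p6, found for 98.7% of rows. B-to-A ratios used a prior count of 2. Alternatives were DESeq2 1.42.0, other factors, other filters, a replicate block and leaving out each library. The fits were tested on simulated counts with 200 changed genes and 1 spread between replicates, fixed for all genes and not estimated from these libraries. Replicates differed by more than sampling noise in all 4 groups. No authors' comparison was used.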

Additional observations from a re-analysis of the deposited data

How the results depend on the processing

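The count of 0 called in total RNA held under every alternative run, including DESeq2, other scaling, other filters and leaving out each library. With replicate letter as a block it was also 0, as it was with crossed letters (WT A with miR-379KO B), an alternative chosen after seeing the data because deviations of same-letter total RNA libraries correlated at -0.126 over genes; for AGO2-IP the correlation was -0.0269, so letters were not taken as pairing WT with miR-379KO libraries. Between total RNA and AGO2-IP the same-letter correlations were 0.178 in WT and 0.0847 in miR-379KO, and across genotypes 0.176 and 0.00597. In AGO2-IP the block gave 4 called in place of 5, in AGO2-IP against total RNA 9 in WT and 18 in miR-379KO, as without it, and in the interaction 0. The 5 AGO2-IP calls between genotypes became 0 with DESeq2, 0 in a fit of all 8 libraries, and 1, of 2 genes tested, with a mean of at least 50 counts. Leaving out 1 library gave 1 to 4: 3 without WT A, 2 without WT B, 4 without miR-379KO A and 1 without miR-379KO B. TMM factors from genes seen in total RNA gave 6 with a median over all genes of 0.16 in place of -0.01, and moved the higher share of all calls from 69.2% to 85.7%. AGO2-IP against total RNA gave 1 call in WT and 4 in miR-379KO with a mean of at least 50 counts, where fewer genes were tested, and 5 to 9 and 15 to 19 when 1 library was left out. The WT median of 0.50 ranged from -0.35 to 0.51 when 1 library was left out. It turned to -0.35 without WT AGO2-IP A and to -0.14 without miR-379KO AGO2-IP B. The median over all genes moved too, from 0.49 to 0.11 and 0.10, and the cause was not tested. The interaction gave 0 to 1 when 1 library was left out, the 1 without WT total RNA B. At 1.5-fold in place of 2-fold, 6 genes in WT and 7 in miR-379KO differed between B and A, beside 32.3% and 15.3% of all genes. Redefining the background by a mean of at most 1 count in total RNA left the genes above it at 16, 13, 15 and 9. With under 10 counts in most AGO2-IP libraries, changes of the low genes were not resolvable at this depth.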

Other observations

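The 12 listed genes of class I antigen processing, which interferon also induces, ranged widely in total RNA. B2m, the light chain of class I molecules, had a mean of 207 CPM per kb, H2-K1 19.8 and H2-D1 6.47, and the peptide transporter genes Tap1 and Tap2 had 4.10 and 4.76. The immunoproteasome genes Psmb8 and Psmb9 stood at 2.25 and 0.406, and Nlrc5, which encodes a transactivator of class I genes, at 0.0718. Of 39 other interferon-induced genes tested in total RNA 0 were called between genotypes by edgeR, and 0 had an unadjusted p under 0.05. In AGO2-IP 2 of 43 tested were lower in miR-379KO, beside 9.52% of all genes: Tap2 (-1.33 ± 0.40, edgeR adjusted p = 0.0161) and B2m (-0.63 ± 0.23, adjusted p = 0.0398). Of all genes with a mean over 1000 counts in total RNA, as for B2m, 26.4% were called lower, and with 100 to 1000, as for Tap2, 5.14%.

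In AGO2-IP 17 of 43 of these other genes were higher in miR-379KO, beside 21.4% of all genes tested. All 11 with a mean of at most 10 counts in total RNA were among the 17, and over all genes 71.7% to 88.4% were called higher at that level. With 10 to 100 counts 3 of 6 were called higher, beside 41.3% of all genes, and with 100 to 1000 counts 3 of 19, beside 4.65%: Irgm2, Herc6 and Ube2l6. Some of these genes had under 10 AGO2-IP counts in both WT libraries and passed the filter through their miR-379KO counts. Examples are Iigp1 (1, 1, 11 and 10 AGO2-IP counts), Irgm2 (6, 3, 15 and 11) and Ifi203. The numbers of genes called higher therefore carry no weight of their own. Ddx60, an RNA helicase gene, had 5, 2, 3 and 1 counts in total RNA and 16, 14, 59 and 67 in AGO2-IP, and Ifi203 had 0, 3, 1 and 0 in total RNA and 3, 3, 20 and 27 in AGO2-IP. Ube2l6, the conjugating enzyme gene for Isg15, had 104, 60, 167 and 88 counts in total RNA and 17, 8, 34 and 44 in AGO2-IP, a log2 change in AGO2-IP of 1.85 ± 0.38 (edgeR adjusted p = 0.00128) and of 0.39 ± 0.42 in total RNA. Slfn5 had 18, 27, 21 and 12 counts in total RNA and 36, 26, 78 and 82 in AGO2-IP, a log2 change in AGO2-IP of 1.58 ± 0.27 (adjusted p = 0.000419).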
